A study of Danio rerio with 5 samples.

Results

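Integrins and the proteins that join them to the actin cytoskeleton were followed in MYCN-driven zebrafish neuroblastomas. Members were taken by lower-case gene symbol: integrin alpha and beta subunits, talins, kindlins, vinculins, paxillins, parvins, focal adhesion kinases, integrin-linked kinase and zyxin. Entries written in capitals, such as a further kindlin-3 entry, fell outside this rule, which gave 53 of the 30647 genes in the count tables. By symbol, 5 of them were leukocyte integrins (itgb2, itgb7, itgae.1, itgae.2 and itgam), 27 were broad integrin subunits, 1 was an integrin-binding protein (itgb1bp1) and 20 were focal adhesion proteins. The alphaL gene was not analysed here. RNA came from EGFP+ cells sorted from tumors that carried the dbh:EGFP and MYCN transgenes, both driven by the promoter of dbh, the enzyme that makes noradrenaline. One genotype was TATA/TATA, a homozygous knock-in that turns a conserved GATA site in the first intron of lmo1 into TATA and also carries neighbouring base changes from the donor oligonucleotide, and it was sequenced in 2 libraries. It was set against lmo1-/-, a homozygous CRISPR-Cas9 disruption of the second exon of lmo1, in 3 libraries. The fish were described as juvenile, but no exact age or number of fish was given for a library. Each genotype was a single edited line, and tumors with unedited lmo1 were not analysed here. Every difference is therefore between the 2 mutant genotypes.

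Integrins are receptors built of an alpha and a beta subunit that hold cells to extracellular matrix or to other cells. Talins and kindlins bind the beta tail and switch the receptor on, and vinculin, paxillin, integrin-linked kinase, parvins and focal adhesion kinases then gather at the site and couple it to actin and to signaling. Most cells use the subunits beta1 and alphaV with varied partners. The mammalian beta2 and beta7 subunits and most of their alpha partners, though not alpha4, are instead largely limited to blood cells. Blood cells also prefer their own copies of the adaptors, such as kindlin-3 and gamma-parvin. Neural crest derivatives, the lineage of neuroblastoma, migrate on fibronectin and laminin through beta1 integrins.

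Levels are given as RPKM, read counts scaled by exon length and by the mapped reads of the library, and fold changes as log2 of TATA/TATA over lmo1-/- from the counts after TMM scaling, with the SE and a p adjusted over all genes tested by the Benjamini-Hochberg method. The 2 TATA/TATA libraries held 55162290 and 52920125 counts on genes and the 3 lmo1-/- libraries between 48144549 and 55782865, so that 1 count in a gene with 1 kb of exon was worth 0.0129 to 0.0134 RPKM in TATA/TATA libraries and 0.0137 to 0.0156 RPKM in lmo1-/- libraries. The scaling matters here: the median log2 fold change of all 13484 genes tested was -0.047 with TMM but 0.41 with the library totals behind the RPKM, and the calls were 2678 higher and 2255 lower with TMM against 4006 higher and 869 lower with those totals. A gene with equal RPKM in both genotypes can thus have a negative fold change. The TATA/TATA libraries resembled each other much more closely than the lmo1-/- libraries did (chi-square per degree of freedom of the counts 9.22 for the TATA/TATA pair and 113.2 to 141.2 for the lmo1-/- pairs). No source said that libraries of a genotype came from separate fish, so p-values measure the spread between these libraries, which may be technical. The targeted gene, lmo1, had 13.6 and 12.7 RPKM in TATA/TATA libraries, against 24.6, 21.0 and 41.9 RPKM in lmo1-/- libraries, where transcript from a disrupted gene is still counted, so the level does not check the label.

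Of the 53 members, 25 had at least 1 RPKM in at least 2 libraries and entered the test. Of the 25, 9 were under 1 RPKM in every lmo1-/- library, 8 of which were called higher. Such genes entered through TATA/TATA alone and had to lie above lmo1-/-, so counts and medians over the tested genes of any list here are a description and not support for a direction. Of the 16 others, 4 were called higher and 3 lower. Among all genes tested, 1739 were under 1 RPKM in every lmo1-/- library, 1475 of them called higher. Of the 11200 genes not under 1 RPKM throughout either genotype, 1203 were higher and 1822 lower. In all, 12 of the 25 were higher in TATA/TATA, where 19.9% of all genes tested were called higher, and 3 were lower, where 16.7% were called lower; in either direction 15 of 25 were called, beside 36.6% of all genes tested. The remaining 10 did not pass. The 3 lower calls, itga5, itgb1a and tln2a, were all lost in edgeR with the RPKM totals, where 1 of the 25 was lower at an unadjusted p under 0.05, and without either TATA/TATA library, where 2 were. The median log2 fold change of the 25 was 1.35, beside -0.047 over all genes tested. In RPKM, 15 of the 25 lay above every lmo1-/- library in both TATA/TATA libraries, as 54.2% of all genes tested did, and 1 lay below, beside 14.1%. By class, all 5 leukocyte integrins were tested and higher, 3 of 6 tested broad integrins were higher and 2 lower, and 4 of 13 tested focal adhesion proteins were higher and 1 lower.

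**Figure D1:**
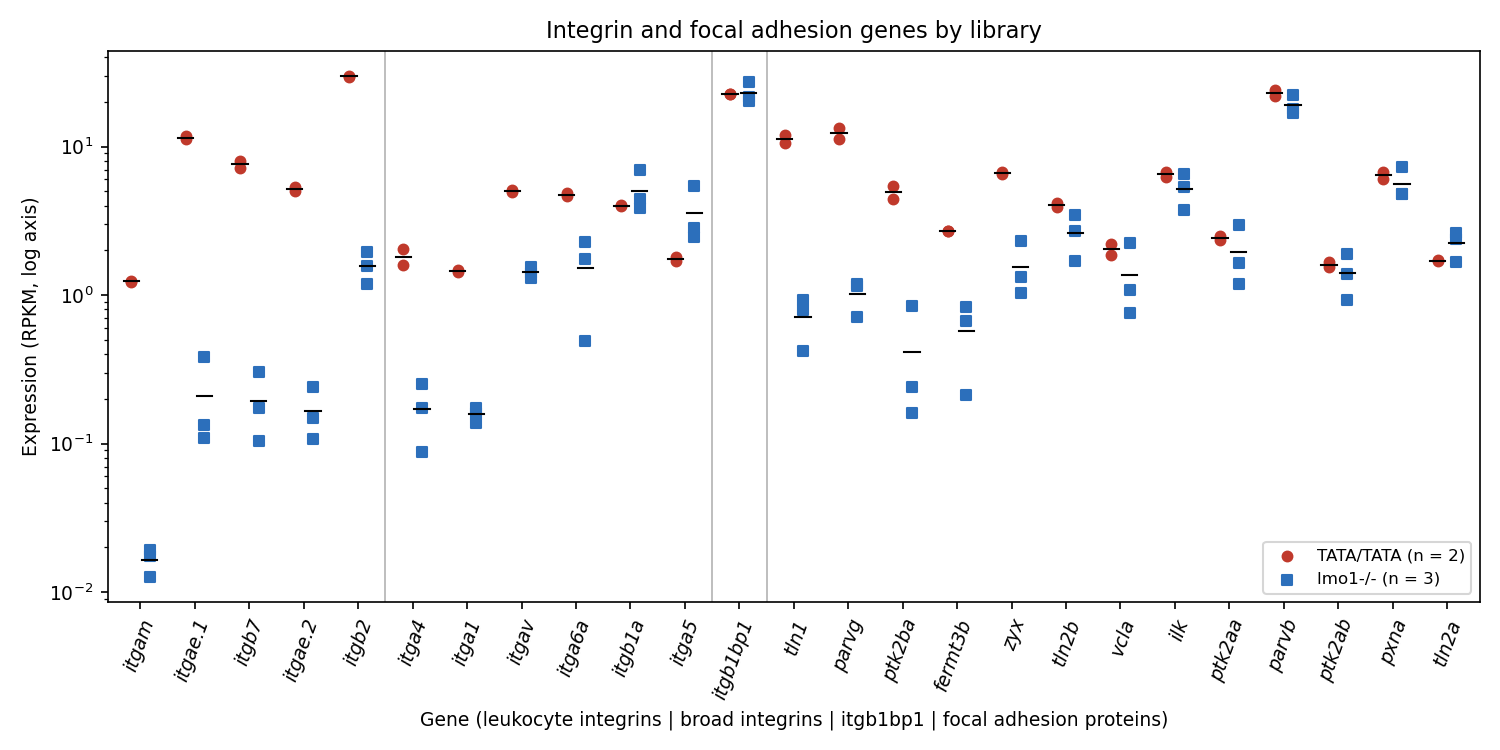
Expression (RPKM, log axis) of the 25 tested members in each library, with TATA/TATA (n = 2, red circles) left of lmo1-/- (n = 3, blue squares) and a line at each mean; genes are grouped by class and ordered by fold change within it. The 5 leukocyte integrins, itga4, itga1, tln1 and parvg stand apart between genotypes, whereas itgb1a, itgb1bp1, ilk, parvb and pxna overlap.

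The leukocyte integrins were abundant in TATA/TATA libraries and scarce in lmo1-/- libraries. Together they reached 54.3 and 55.9 RPKM in TATA/TATA libraries, against 2.17, 1.53 and 2.76 RPKM in lmo1-/- libraries. All 5 were called higher, with a median log2 fold change of 4.85, but only itgb2 reached 1 RPKM in any lmo1-/- library, and the other 4 entered the test through TATA/TATA alone. As the RNA came from bulk sorted cells, a smaller number of leukocytes and less of this RNA per cell cannot be told apart.

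Among the beta subunits, itgb2, whose mammalian counterpart is the common chain of the leukocyte-specific integrins, had 29.3 and 30.0 RPKM in TATA/TATA libraries, against 1.57, 1.19 and 1.95 RPKM in lmo1-/- libraries. The genotypes were far apart and itgb2 was higher by 3.80 on the log2 scale (SE 0.17, adjusted p = 0.000229). It was the most abundant of all 32 integrin subunits in the TATA/TATA libraries. The other leukocyte beta subunit, itgb7, which in mammals pairs with alpha4 and alphaE to hold lymphocytes in the gut, had 7.19 and 7.96 RPKM in TATA/TATA libraries, against 0.301, 0.104 and 0.172 RPKM in lmo1-/- libraries. Its log2 fold change was 4.85 (SE 0.41, adjusted p = 0.000701), and lmo1-/- replicate 1 was the highest of the low group.

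The 3 leukocyte alpha subunits followed the same order. The gene itgae.1, named for the alphaE chain that binds E-cadherin in mammals, had 11.2 and 11.8 RPKM in TATA/TATA libraries, against 0.134, 0.108 and 0.380 RPKM in lmo1-/- libraries. It was higher by 5.37 on the log2 scale (SE 0.46, adjusted p = 0.000723), and lmo1-/- replicate 3 held the most of it among the lmo1-/- libraries. Its near namesake itgae.2 had 5.32 and 4.997 RPKM in TATA/TATA libraries, against 0.148, 0.107 and 0.240 RPKM in lmo1-/- libraries, and was higher by 4.53 (SE 0.28, adjusted p = 0.000305). How reads were shared between close copies such as these was not tested. The alphaM gene itgam, which in mammals marks macrophages and neutrophils as part of the complement receptor, had 1.24 and 1.23 RPKM in TATA/TATA libraries (346 and 328 counts), against 0.0126, 0.0174 and 0.0191 RPKM in lmo1-/- libraries (3, 4 and 5 counts). The fold change was 5.74 on the log2 scale (SE 0.36, adjusted p = 0.000322), on counts close to the limit of detection in lmo1-/-. With 1 library left out at a time, log2 fold changes stayed between 3.71 and 3.93 for itgb2, 4.61 and 5.33 for itgb7, 5.13 and 6.06 for itgae.1 (6.06 without lmo1-/- replicate 3), 4.37 and 4.83 for itgae.2 and 5.60 and 5.87 for itgam.

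Leukocyte markers were mostly higher in TATA/TATA as well, and the tested erythroid markers were not. The counts below stand beside 19.9% called higher and 16.7% called lower of all genes tested. Of the macrophage markers 16 of 18 tested were higher and the other 2 did not pass, and they summed to between 3119 and 3262 RPKM in TATA/TATA libraries and between 115.2 and 207.9 RPKM in lmo1-/- libraries, led by the antigen-presentation gene cd74a. All 7 pan-leukocyte genes were higher (278.5 to 302.9 RPKM summed in TATA/TATA, 13.9 to 24.02 RPKM in lmo1-/-; most abundant coro1a). Of the lymphoid list 6 of 7 tested genes were higher (1079 to 1314 against 27.3 to 85.0 RPKM, nearly all from nkl.2, with lmo1-/- replicate 1 highest of its genotype), while pax5 had no count in any library and cd79b none in lmo1-/-. Of the neutrophil list 5 of 9 were higher (244.5 to 267.2 against 38.3 to 160.4 RPKM), and lmo1-/- replicate 3 held the most, its lyz level of 75.5 RPKM lying near the 83.2 and 87.9 RPKM of TATA/TATA. Some of these higher leukocyte genes were under 1 RPKM in every lmo1-/- library and entered the test through TATA/TATA alone. They were 2 of the macrophage, 1 of the pan-leukocyte, 3 of the lymphoid and 1 of the neutrophil genes. For other cell types, single tested genes were higher for endothelium (tie1) and fibroblasts (col1a1b, 1 of 2, not the abundant mmp2). Both were under 1 RPKM in every lmo1-/- library and entered the test through TATA/TATA alone. Of the Schwann markers 2 of 9 were tested and higher (egr2b and erbb3b, both under 1 RPKM in every lmo1-/- library). No thrombocyte gene was abundant enough to test (f5 the highest of these). The sums of these lists were at most 10.3 RPKM in TATA/TATA and 8.75 RPKM in lmo1-/-. Of the 7 Schwann markers under the level for the test, mpz was called lower in the fit of every gene with a count (log2 fold change -1.21, adjusted p = 0.0458) and the other 6 were not called, with foxd3 at 0 in lmo1-/-. In that fit gata1a of the erythroid list was called higher (log2 fold change 3.54, adjusted p = 0.0496). So were f5 (thrombocyte, 3.85), fli1a (endothelial, 2.25), col1a1a (fibroblast, 2.06) and runx3 (lymphoid, 4.88), and mc2r (interrenal, -3.00) was lower. Of all genes in that fit, 15% were called higher and 10.4% lower. Erythroid genes were lower in 3 of 4 cases (hbba1; 31.2 to 33.2 RPKM summed in TATA/TATA, 46.7 to 57.2 RPKM in lmo1-/-) and interrenal genes in 1 of 4 (star; 16.2 to 19.3 against 25.6 to 59.5 RPKM, with hsd3b2 at 0 in lmo1-/-). Of the 20 sympathoadrenal markers of the labelled cell type, all were tested, 2 were higher and 6 lower (th the most abundant; 1492 to 1582 RPKM summed in TATA/TATA, 1804 to 2597 RPKM in lmo1-/-). The part of these cell types in the integrin differences was not tested.

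Set against the summed RPKM of the 7 pan-leukocyte genes, the leukocyte integrins were still higher in TATA/TATA. The level of itgb2 was 10.5 and 9.89% of that sum in TATA/TATA libraries, against 6.56, 8.52 and 8.26% in lmo1-/- libraries. That of itgae.1 was 4.03 and 3.89% in TATA/TATA libraries, against 0.558, 0.776 and 1.61% in lmo1-/- libraries. Both stayed apart on this scale, itgb2 by little and itgae.1 by more, and itgae.2, itgb7 and itgam were also apart, with TATA/TATA above. Of the adaptors, tln1 and parvg behaved otherwise. The level of tln1 was 3.77 and 3.97% of the pan-leukocyte sum in TATA/TATA libraries, against 3.85, 2.995 and 3.38% in lmo1-/- libraries, which overlap. That of parvg was 4.04 and 4.42% in TATA/TATA libraries, against 4.93, 5.14 and 4.86% in lmo1-/- libraries, so TATA/TATA was slightly below. These ratios are descriptions without a test.

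**Figure D2:**
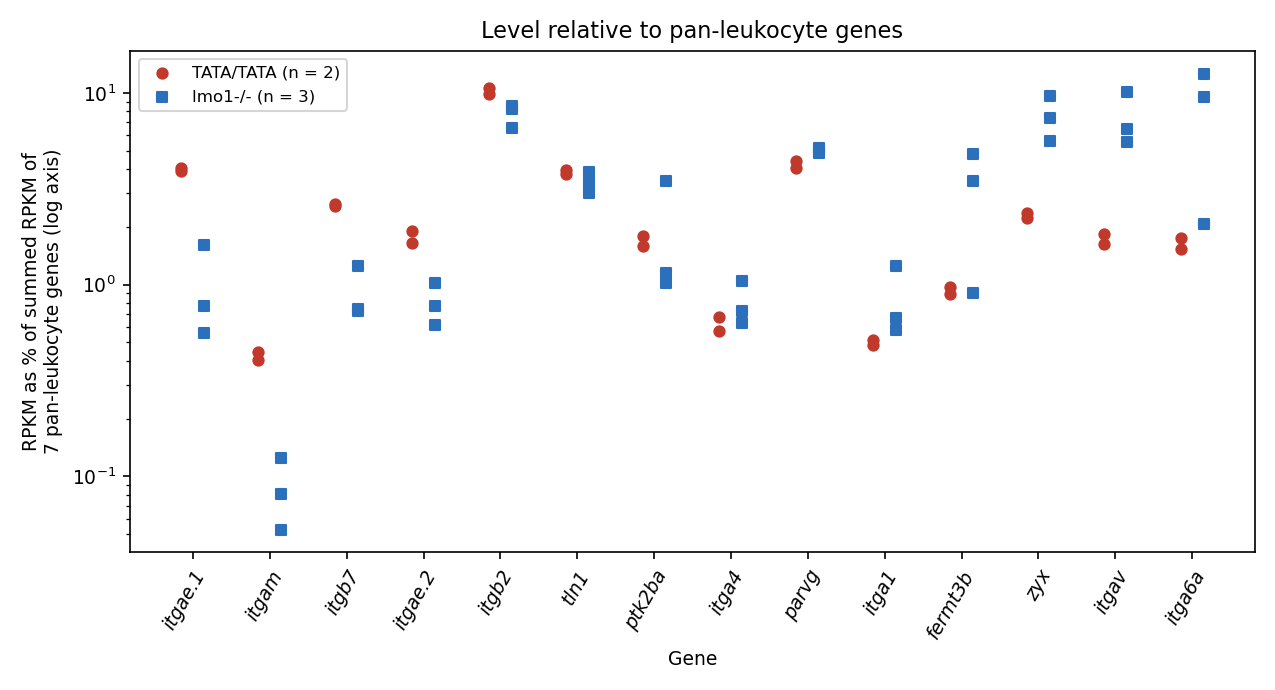
RPKM of 14 members as a percent of the summed RPKM of 7 pan-leukocyte genes in the same library (log axis), TATA/TATA (n = 2, red circles) left of lmo1-/- (n = 3, blue squares). The 5 leukocyte integrins lie above lmo1-/- in TATA/TATA, tln1, ptk2ba, itga4 and fermt3b overlap, and itgav, zyx, itga6a, itga1 and parvg lie below.

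The broad integrin alpha subunits split by gene. The subunit itga1, which pairs with beta1 to bind collagen, had 1.44 and 1.47 RPKM in TATA/TATA libraries, against 0.161, 0.173 and 0.137 RPKM in lmo1-/- libraries. It was higher by 2.73 on the log2 scale (SE 0.27, adjusted p = 0.00118). The alpha4 subunit itga4, which binds vascular adhesion molecules and fibronectin and in mammals is common on leukocytes and on neural crest cells, had 1.60 and 2.04 RPKM in TATA/TATA libraries, against 0.250, 0.0873 and 0.172 RPKM in lmo1-/- libraries, and was higher by 2.98 (SE 0.42, adjusted p = 0.00354). Both were well apart between genotypes, but both were under 1 RPKM in every lmo1-/- library. They entered the test through TATA/TATA alone, so their direction was fixed by the level for the test. The alphaV subunit itgav, a receptor for RGD-containing ligands such as vitronectin, had 5.14 and 4.93 RPKM in TATA/TATA libraries, against 1.55, 1.41 and 1.30 RPKM in lmo1-/- libraries, and was higher by 1.35 (SE 0.20, adjusted p = 0.00391). Its libraries agreed closely within each genotype.

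Both subunits of the fibronectin receptor, itga5 and itgb1a, were called lower with TMM scaling but not with the RPKM totals. The alpha subunit itga5 had 1.81 and 1.68 RPKM in TATA/TATA libraries, against 2.82, 2.45 and 5.43 RPKM in lmo1-/- libraries. The genotypes did not overlap and itga5 was lower, at -1.45 on the log2 scale (SE 0.30, adjusted p = 0.0129), and with the RPKM totals it was -1.03 and no longer passed (adjusted p = 0.0783). Nor did it pass without TATA/TATA replicate 1 or without TATA/TATA replicate 2 (adjusted p = 0.0859 and 0.0988), and lmo1-/- replicate 3 was its highest library. Its partner itgb1a, the main beta1 gene in these libraries, had 3.96 and 4.01 RPKM in TATA/TATA libraries, against 4.41, 3.83 and 6.90 RPKM in lmo1-/- libraries. The genotypes overlapped in RPKM, since lmo1-/- replicate 2 lay just below both TATA/TATA libraries. On the log2 scale itgb1a was at -0.77 (SE 0.21, adjusted p = 0.0344) with TMM and -0.34 with the RPKM totals (adjusted p = 0.40). The call was also lost without lmo1-/- replicate 3 (log2 fold change -0.55, adjusted p = 0.0571) and without either TATA/TATA library (adjusted p = 0.227 and 0.205).

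The laminin receptor subunit itga6a, also used by neural crest cells, had 4.85 and 4.62 RPKM in TATA/TATA libraries, against 2.29, 1.76 and 0.491 RPKM in lmo1-/- libraries. TATA/TATA lay above every lmo1-/- library, but the spread among the lmo1-/- libraries was wide and the log2 fold change of 1.13 did not pass (SE 0.63, adjusted p = 0.211). Without lmo1-/- replicate 3, the lowest library, the log2 fold change was 0.73 and passed (adjusted p = 0.0319). The gene also passed in limma on log2(RPKM + 0.1) and log2(RPKM + 1) and with a replicate block (adjusted p = 0.0472, 0.0219 and 0.0465). It did not pass in edgeR with the RPKM totals or in DESeq2 (adjusted p = 0.063 and 0.1305). In all, it passed in 4 of 12 alternatives.

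The other 21 broad integrin subunits had too little RNA to enter the test, 20 of them under 1 RPKM in every library and itga2.1 without any count. When the fit took in the 25459 genes that had any count, 5 of these 21 were called higher and 1 lower, beside 15% of all genes called higher and 10.4% lower. These 6 are named here after their values were seen. The subunit itgb5, an alphaV partner, had 1.095 and 0.957 RPKM in TATA/TATA libraries, against 0.197, 0.0821 and 0.247 RPKM in lmo1-/- libraries (log2 fold change 2.09, adjusted p = 0.0121). The minor beta1 copy itgb1b.1 had 0.857 and 0.767 RPKM in TATA/TATA libraries, against 0.117, 0.0831 and 0.196 RPKM in lmo1-/- libraries (log2 fold change 2.16, adjusted p = 0.00477), which was opposite in sign to itgb1a. The beta3 copy itgb3b was lower, with 0.0802 and 0.167 RPKM in TATA/TATA libraries, against 0.278, 0.670 and 0.372 RPKM in lmo1-/- libraries (log2 fold change -2.36, adjusted p = 0.0335). The other 3, itga3a, itga6l and itgb8, passed on at most 67 counts in a TATA/TATA library and at most 5 in an lmo1-/- library, so no fold is given for them. Each of the 6 lost its call without TATA/TATA replicate 1 and without TATA/TATA replicate 2 (adjusted p = 0.0621 to 0.386). The calls of itga3a, itga6l, itgb3b and itgb8 were also lost without lmo1-/- replicate 2 (adjusted p = 0.0625 to 0.0879), those of itga3a and itgb8 without lmo1-/- replicate 3 (adjusted p = 0.0564 and 0.0679), and that of itgb3b with the RPKM totals (adjusted p = 0.064).

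These differences changed which subunits made up the integrin RNA. Leukocyte subunits made up 71.2 and 71.7% of the summed RPKM of all 32 subunits in TATA/TATA libraries, against 14.3, 12.1 and 14.5% in lmo1-/- libraries. Among beta subunits, itgb2 held 68.3 and 67.8% in TATA/TATA libraries, against 22.5, 19.8 and 19.5% in lmo1-/- libraries. The share of itgb1a was 9.23 and 9.08% in TATA/TATA libraries, against 63.0, 63.8 and 68.9% in lmo1-/- libraries. The leading beta gene therefore differed by genotype in every library, although the RPKM of itgb1a itself overlapped. Leukocyte alpha subunits held 53.4 and 53.3% of the alpha RPKM in TATA/TATA libraries, against 3.58, 3.52 and 7.10% in lmo1-/- libraries, where itga5 led in every one. The broad subunits as a whole were also more abundant in RPKM in TATA/TATA (21.9 and 22.03 RPKM summed) than in lmo1-/- (13.1, 11.1 and 16.2 RPKM), on the authors' totals.

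**Figure D3:**
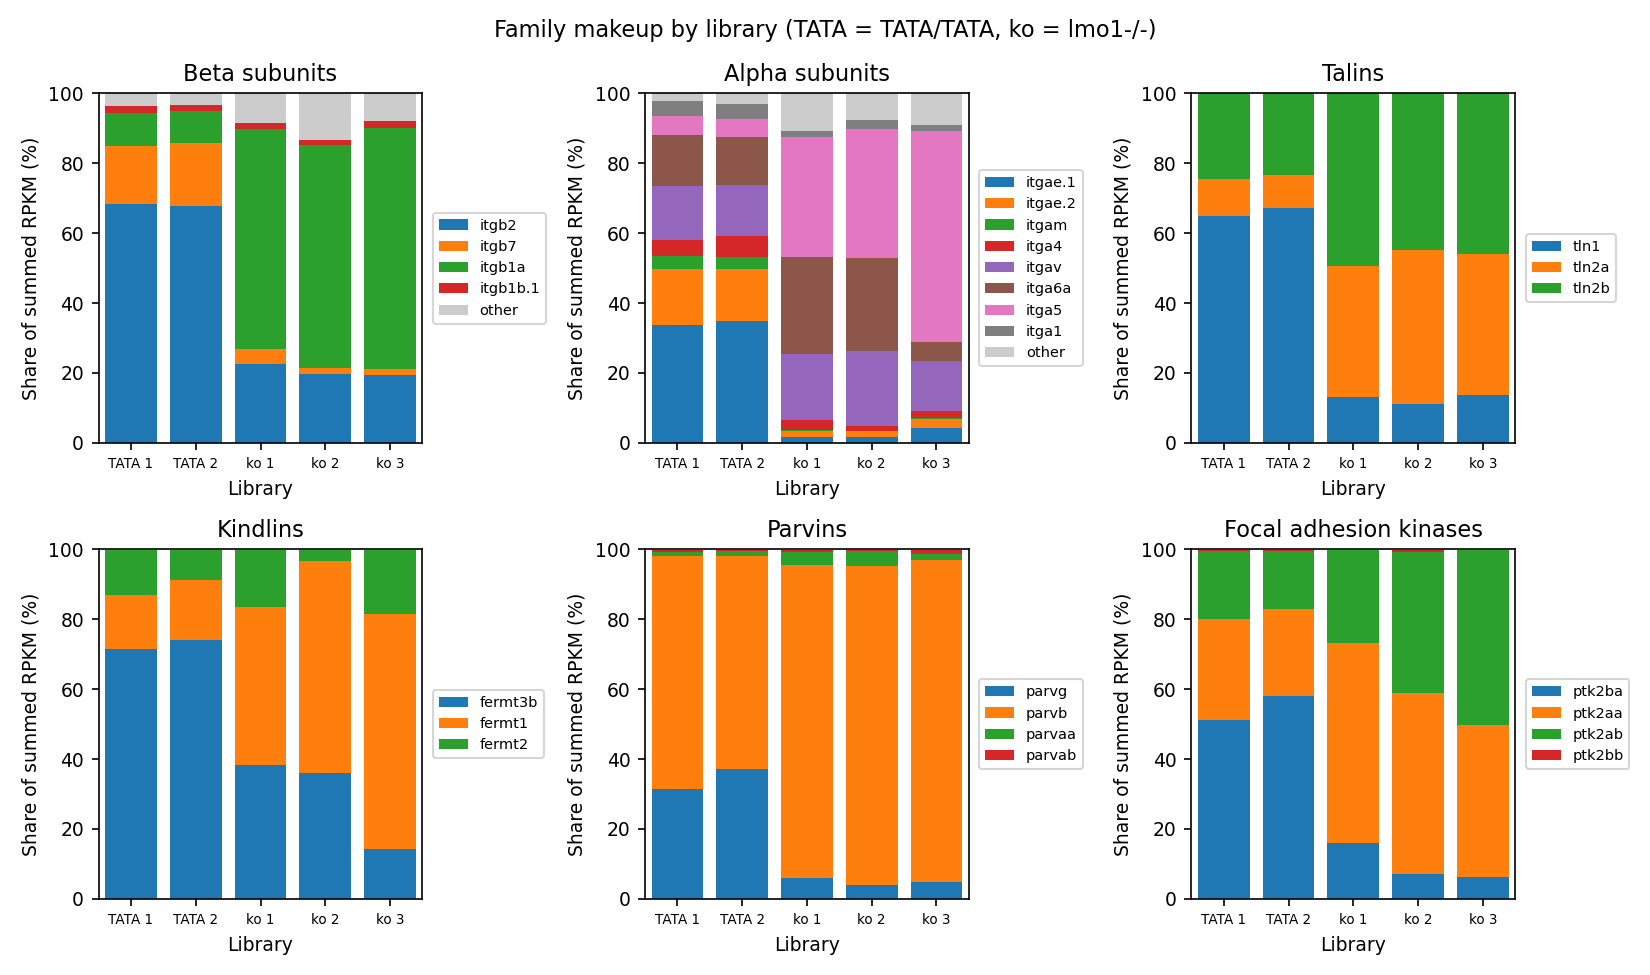
Share of the summed RPKM (%) that each gene held within 6 families in each library, TATA/TATA bars left of lmo1-/- bars (ko); colored blocks are genes and add to 100%. In TATA/TATA the largest blocks are itgb2, itgae.1, tln1, fermt3b and ptk2ba, and in lmo1-/- they are itgb1a and itga5, while parvb is the largest parvin in all 5 libraries. The kindlins shown are fermt3b, fermt1 and fermt2 only. A further kindlin-3 entry outside the symbol rule, FERMT3_(1_of_many), is left out. It exceeded fermt3b in TATA/TATA libraries (5.16 and 6.34 against 2.72 and 2.71 RPKM).

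Of the 20 focal adhesion proteins, 7 were under the level for the test, and 1 of these (vclb) was called higher and 1 (fermt1) lower in the fit that took in every gene with a count, where 15% of all genes were called higher and 10.4% lower. The talins, which bind the beta tail and activate the receptor, divided by copy. The gene tln1, the talin of blood cells and of most other tissues in mammals, had 10.5 and 12.01 RPKM in TATA/TATA libraries, against 0.925, 0.418 and 0.798 RPKM in lmo1-/- libraries. It was higher by 3.54 on the log2 scale (SE 0.30, adjusted p = 0.000674), having entered the test through TATA/TATA alone. The talin-2 copy tln2a, of a gene prominent in mammalian brain and muscle, had 1.71 and 1.68 RPKM in TATA/TATA libraries, against 2.63, 1.68 and 2.38 RPKM in lmo1-/- libraries. These overlapped in lmo1-/- replicate 2, and the log2 fold change of -0.84 (SE 0.20, adjusted p = 0.0194) shrank to -0.39 with the RPKM totals (adjusted p = 0.258). It also lost the call without TATA/TATA replicate 1 or replicate 2 (adjusted p = 0.163 and 0.165). The other copy, tln2b, had 3.93 and 4.17 RPKM in TATA/TATA libraries, against 3.46, 1.69 and 2.71 RPKM in lmo1-/- libraries, and its log2 fold change of 0.18 did not pass (SE 0.29, adjusted p = 0.67). As a share of the 3 talins, tln1 made up 65.1 and 67.3% in TATA/TATA libraries, against 13.2, 11.04 and 13.6% in lmo1-/- libraries.

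Kindlins work beside talins on the beta tail. The kindlin-3 gene fermt3b, whose mammalian counterpart is limited to blood cells, had 2.72 and 2.71 RPKM in TATA/TATA libraries, against 0.829, 0.671 and 0.214 RPKM in lmo1-/- libraries. All TATA/TATA values lay above, but the log2 fold change of 1.74 did not pass (SE 0.58, adjusted p = 0.061), and without lmo1-/- replicate 3 it was 1.36 and passed (adjusted p = 0.0051). It passed as well with the RPKM totals, at 2.25 (adjusted p = 0.0176), and in DESeq2, at 1.76 (adjusted p = 0.0144). A further kindlin-3 entry, written FERMT3_(1_of_many) in the tables, fell outside the symbol rule and is added after its values were seen. It had 5.16 and 6.34 RPKM in TATA/TATA libraries, against 0.197, 0.179 and 0.460 RPKM in lmo1-/- libraries, and was higher by 3.95 (SE 0.38, adjusted p = 0.00101). Both kindlin-3 entries were under 1 RPKM in every lmo1-/- library and entered the test through TATA/TATA alone. The epithelial kindlin fermt1 had too little RNA for the main test and, named after its values were seen, was lower in the fit over all genes, with 0.591 and 0.632 RPKM in TATA/TATA libraries, against 0.977, 1.13 and 0.998 RPKM in lmo1-/- libraries (log2 fold change -1.27, adjusted p = 0.0224). That call was lost with the RPKM totals (log2 fold change -0.76, adjusted p = 0.131) and without TATA/TATA replicate 1 or replicate 2 (adjusted p = 0.237 and 0.204).

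Integrin-linked kinase and its parvin partners, which join the beta tail to actin, included parvb, the most abundant of the 20 focal adhesion members. The gene ilk had 6.78 and 6.22 RPKM in TATA/TATA libraries, against 5.37, 3.75 and 6.52 RPKM in lmo1-/- libraries. Its log2 fold change did not pass and changed sign with the scaling, being -0.12 with TMM (SE 0.19, adjusted p = 0.666) and 0.32 with the RPKM totals. The beta-parvin gene parvb had 23.9 and 22.04 RPKM in TATA/TATA libraries, against 18.0, 16.9 and 22.2 RPKM in lmo1-/- libraries. It likewise did not pass, at a log2 fold change of -0.18 with TMM (SE 0.14, adjusted p = 0.352) and 0.27 with the RPKM totals. Neither gene was separated between genotypes. The gamma-parvin gene parvg, the parvin of blood cells in mammals, had 11.2 and 13.4 RPKM in TATA/TATA libraries, against 1.18, 0.716 and 1.15 RPKM in lmo1-/- libraries. It was higher by 3.15 (SE 0.24, adjusted p = 0.000516). It made up 31.5 and 37.0% of the parvin RPKM in TATA/TATA libraries, against 5.91, 3.87 and 4.76% in lmo1-/- libraries. The alpha-parvin copies parvaa and parvab were both under 1 RPKM in every library and neither was called.

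The focal adhesion kinases, tyrosine kinases that clustered integrins activate, carry the signal onward. Neither copy of the classical kinase passed the test, and both overlapped between genotypes. The copy ptk2aa had 2.51 and 2.34 RPKM in TATA/TATA libraries, against 2.98, 1.19 and 1.64 RPKM in lmo1-/- libraries. On the log2 scale this was -0.13 with TMM (SE 0.38, adjusted p = 0.825), 0.32 with the RPKM totals and 0.33 without lmo1-/- replicate 1, its highest library. The copy ptk2ab had 1.66 and 1.54 RPKM in TATA/TATA libraries, against 1.39, 0.921 and 1.90 RPKM in lmo1-/- libraries, or -0.24 on the log2 scale with TMM (SE 0.24, adjusted p = 0.488) and 0.19 with the RPKM totals. The related kinase gene ptk2ba, whose mammalian counterpart Pyk2 is prominent in blood cells and neurons, had 4.43 and 5.45 RPKM in TATA/TATA libraries, against 0.837, 0.160 and 0.241 RPKM in lmo1-/- libraries. It was under 1 RPKM in every lmo1-/- library and entered the test through TATA/TATA alone. It was higher by 3.13 (SE 0.68, adjusted p = 0.015), with lmo1-/- replicate 1 well above the rest of its genotype. Without that library the log2 fold change was 4.18, and without TATA/TATA replicate 2 it was 2.96 and did not pass (adjusted p = 0.0643). The kinase ptk2ba made up 51.2 and 58.2% of the family RPKM in TATA/TATA libraries, against 16.1, 6.99 and 6.37% in lmo1-/- libraries.

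Of the actin-side proteins only zyx passed among those tested. Zyxin, a LIM protein of mature adhesions and stress fibers, had 6.58 and 6.70 RPKM in TATA/TATA libraries, against 2.31, 1.03 and 1.33 RPKM in lmo1-/- libraries. It was higher by 1.64 on the log2 scale (SE 0.35, adjusted p = 0.0139), though not without TATA/TATA replicate 1 or replicate 2 (adjusted p = 0.0727 and 0.08). The vinculin gene vcla, which ties talin to actin, had 2.203 and 1.87 RPKM in TATA/TATA libraries, against 2.24, 0.758 and 1.08 RPKM in lmo1-/- libraries. Its log2 fold change of 0.13 did not pass (SE 0.44, adjusted p = 0.848), but was 0.70 and passed without lmo1-/- replicate 1, which was level with TATA/TATA (adjusted p = 0.0269), and was negative without lmo1-/- replicate 2 or replicate 3 (-0.11 and -0.024). The second vinculin gene vclb, under the level for the test and named after its values were seen, had 0.477 and 0.538 RPKM in TATA/TATA libraries, against 0.124, 0.0612 and 0.0268 RPKM in lmo1-/- libraries (log2 fold change 2.32, adjusted p = 0.0298, and 0.147 and 0.195 without TATA/TATA replicate 1 or replicate 2 and 0.0873 without lmo1-/- replicate 2). The paxillin gene pxna, the scaffold on which the kinases assemble, had 6.03 and 6.77 RPKM in TATA/TATA libraries, against 7.29, 4.79 and 4.77 RPKM in lmo1-/- libraries, which overlapped. It was at -0.28 on the log2 scale with TMM (SE 0.26, adjusted p = 0.447) and 0.19 with the RPKM totals. The integrin-binding protein itgb1bp1, which competes with talin for the beta1 tail, had 22.6 and 22.6 RPKM in TATA/TATA libraries, against 20.3, 21.5 and 27.1 RPKM in lmo1-/- libraries. Its log2 fold change was -0.48 (SE 0.16, adjusted p = 0.0578) with TMM and -0.025 with the RPKM totals, and without lmo1-/- replicate 1 it was -0.56 and passed (adjusted p = 0.0101).

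**Figure D4:**
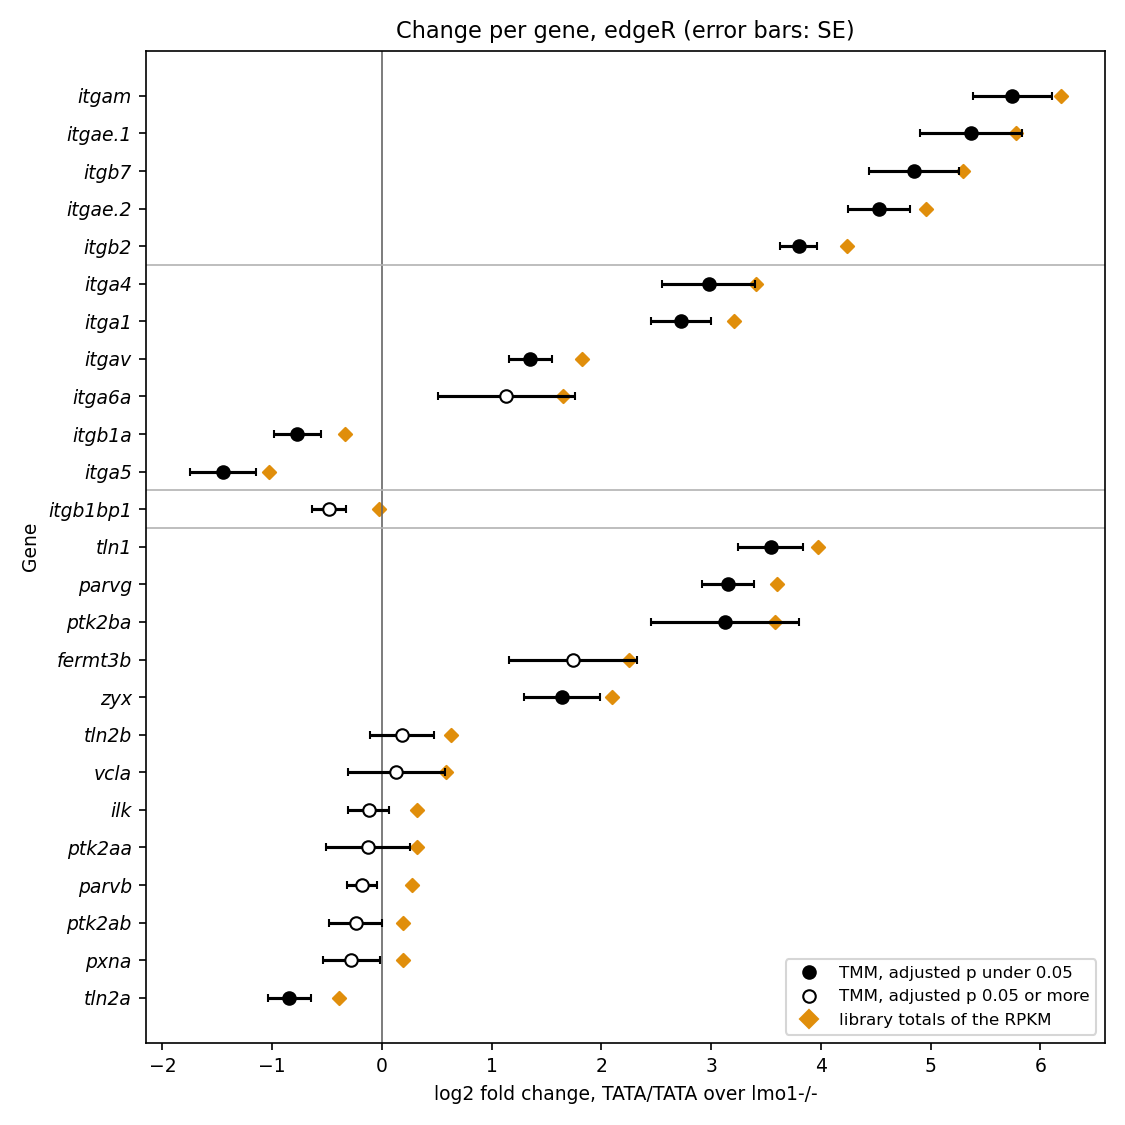
log2 fold change of TATA/TATA over lmo1-/- for the 25 tested members, by class; circles are the TMM-scaled edgeR values with SE bars (filled where the adjusted p is under 0.05) and orange diamonds are the values with the library totals behind the RPKM. The 5 leukocyte integrins run from 3.80 to 5.74 with TMM, and ilk, ptk2aa, parvb, ptk2ab and pxna lie on opposite sides of 0 with the 2 scalings.

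The tested members were also read against dbh, the gene whose promoter marked the sorted cells. The level of dbh was 418.9 and 368.6 RPKM in TATA/TATA libraries, against 545.9, 513.7 and 688.4 RPKM in lmo1-/- libraries (log2 fold change -1.02, adjusted p = 0.00472). For every 1000 RPKM of dbh, itga5 had 4.33 and 4.57 in TATA/TATA libraries, against 5.17, 4.77 and 7.89 in lmo1-/- libraries, and so stayed below. On this scale itgb1a had 9.46 and 10.9 in TATA/TATA libraries, against 8.07, 7.46 and 10.02 in lmo1-/- libraries, and overlapped. The gene tln2a overlapped too, and the other 22 tested members, the 5 leukocyte integrins among them, were above lmo1-/- in both TATA/TATA libraries. As dbh itself was lower there, dividing by it raises any gene in TATA/TATA. The share of all genes above on this scale was not computed, and in RPKM alone it was 54.2%. The count of 22 is therefore a description only. Against the pan-leukocyte sum the order was the reverse for itgav, with 1.85 and 1.63% in TATA/TATA libraries, against 6.44, 10.1 and 5.52% in lmo1-/- libraries, and zyx was likewise below. That sum was itself far higher in TATA/TATA (278.5 to 302.9 RPKM, against 13.9 to 24.02 RPKM in lmo1-/-), so dividing by it lowers any gene there. Members that were not called, such as ilk, parvb, pxna and itgb1bp1, were below on this scale as well. The order of itgav and zyx is therefore a description only.

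Further genes of the pathway were taken from lists of known function. Of 77 listed focal adhesion genes outside the membership, 70 were found by symbol and 47 were tested. Of the 47, 12 were higher and 6 lower, with a median log2 fold change of 0.12. This stands beside 19.9% higher and 16.7% lower of all genes tested, so the shares called lie near those of all genes. Without TATA/TATA replicate 1 or replicate 2 the calls in both directions numbered 7 and 8. The largest changes were those of lpxn (leupaxin, the paxillin relative of mammalian leukocytes, log2 fold change 5.16), vaspa (an actin-filament elongation factor, 3.33), flna (filamin, which binds beta tails and actin, 2.97) and tns3.2 (a tensin, 2.89), all higher in TATA/TATA with adjusted p from 0.000458 to 0.00422. These 4 were under 1 RPKM in every lmo1-/- library and entered the test through TATA/TATA alone. Of 32 listed genes that relay leukocyte integrin signals, 23 were found by symbol and 20 were tested. Among those tested, 18 were higher and the other 2 did not pass, with a median of 3.30, beside the same 19.9% higher of all genes. Of the 20, 12 were under 1 RPKM in every lmo1-/- library, 11 of them called higher, and of the other 8 genes 7 were higher. In the list, 4 genes are also pan-leukocyte markers. The largest were pik3r5 (a regulatory subunit of phosphoinositide 3-kinase gamma, 4.54), apbb1ip (which brings talin to the membrane, 4.46), fybb (an adaptor of T cells and myeloid cells in mammals, 4.21) and rasgrp4 (a Ras exchange factor of myeloid cells in mammals, 3.93). All 4 were under 1 RPKM in every lmo1-/- library and entered the test through TATA/TATA alone. The RPKM of apbb1ip was 6.37 and 6.69 in TATA/TATA libraries, against 0.263, 0.128 and 0.267 in lmo1-/- libraries. As for tln1, the direction of this difference was fixed by the level for the test.

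Ligands were called in both directions. Of 38 listed integrin ligands, 32 were found by symbol and 11 were tested. Among the 11, 5 were higher and 2 lower, with a median log2 fold change of 0.54, beside 19.9% higher and 16.7% lower of all genes. The 5 higher genes were under 1 RPKM in every lmo1-/- library, so the level for the test fixed their direction. The 2 lower ones were under 1 RPKM in every TATA/TATA library and entered through lmo1-/- alone, which favors a lower call without fixing it. None of the other 4 tested ligands was called. The 3 fibrinogen chains, clotting proteins that beta2 and beta3 integrins bind, were all higher (fga 6.03, fgb 5.30 and fgg 4.44 on the log2 scale). The gene fgb had 4.06 and 4.08 RPKM in TATA/TATA libraries, against 0.0335, 0.131 and 0.0546 RPKM in lmo1-/- libraries. The matrix protein gene tgfbi, a ligand of several beta1 and alphaV integrins, had 8.57 and 8.21 RPKM in TATA/TATA libraries, against 0.380, 0.124 and 0.145 RPKM in lmo1-/- libraries (log2 fold change 4.82, SE 0.50, adjusted p = 0.00127). The remaining 3 calls, named after their values were seen, were the fibronectin gene fn1a, which was higher (3.84, adjusted p = 0.00036), and postna and nid1b, which were lower (-3.77 and -0.90, adjusted p = 0.00185 and 0.046). In RPKM nid1b overlapped between genotypes, with 0.966 and 0.948 in TATA/TATA libraries, against 1.48, 0.815 and 1.70 in lmo1-/- libraries. The gene fn1a had 2.19 and 2.77 RPKM in TATA/TATA libraries, against 0.103, 0.110 and 0.169 RPKM in lmo1-/- libraries. Its direction was fixed by the level for the test, and the opposite call of the receptor subunit itga5 was lost with the RPKM totals. The other fibronectin copy, fn1b, overlapped between genotypes. It was not called in the fit of every gene with a count (log2 fold change 0.27, adjusted p = 0.739).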

How the data were processed

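Strand-specific, rRNA-depleted, paired-end RNA-seq libraries of sorted EGFP+ tumor cells were compared, 2 TATA/TATA and 3 lmo1-/-. The deposited tables hold, per gene name, the raw read count, the summed exon length (another unit, in bases) and the RPKM. The authors aligned reads to danRer10 (GRCz10) with HISAT2 2.1.0, obtained the counts with htseq-count on Ensembl release 90 genes (reverse strand, intersection-strict) and divided them by exon length and their own read totals to give RPKM. Between 70.9 and 76.6% of those totals were counted on genes. How close gene copies were resolved was not given in the sources used here.

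Counts were tested with edgeR 4.0.16 (quasi-likelihood F-test, TMM scaling, no block, two-sided, R 4.3.3) on genes that reached 1 RPKM in 2 libraries or more. Benjamini-Hochberg adjustment covered all 13484 genes tested, with a threshold of 0.05. Members under that level took values from the same fit over all 25459 genes with a count. The code was tested on simulated counts. Alternatives were DESeq2 1.42.0, its size factors or the RPKM totals in edgeR, no filter or a mean of at least 5 RPKM, limma 3.58.1 on log2(RPKM + 0.1) or log2(RPKM + 1), a replicate block, and leaving out each library. Every tested member was named, with the 4 largest calls of each pathway list (focal adhesion, leukocyte integrin signaling, integrin ligands) and the most abundant gene of each of 11 marker lists. The members and lists were chosen with earlier results of these data known. Library totals limit precision, and counts of PCR reads are not independent molecules. No coordinates or sequences are given.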

Additional observations from a re-analysis of the deposited data

How the results depend on the processing

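The 5 leukocyte integrins were called higher in each alternative that tested them (1 of 5 with a mean of at least 5 RPKM), 4 of them having entered through TATA/TATA alone, with a median log2 fold change of 2.85 in limma with a pseudocount of 1 and 3.88 with the 5 RPKM filter. That filter left 6 members by construction, with 2 higher, 0 lower (0 also in edgeR with the RPKM totals and in limma with either pseudocount, with 1 lower at an unadjusted p under 0.05 in each of these, and 5 lower without a filter), 1 focal adhesion protein higher and a median over members of -0.071, which was 1.82 with the RPKM totals and 1.81 in limma with a pseudocount of 0.1. It also left 10 of 21 focal adhesion pathway, 6 of 6 leukocyte signaling and 0 of 1 ligand genes called. Of all 6173 genes tested with this filter, 868 were higher and 960 lower. Without a filter 8 of 26 broad integrins were higher and 12 of 32 ligand genes were called, beside 15% of all genes higher and 10.4% lower. Broad integrins called lower numbered 0 with the RPKM totals and in limma with either pseudocount. Signs turned with the RPKM totals, in limma with 0.1 and in limma with 1 for ilk (0.32, 0.35, 0.30), parvb (0.27, 0.28, 0.27), ptk2aa (0.32, 0.40, 0.27), ptk2ab (0.19, 0.23, 0.13) and pxna (0.19, 0.21, 0.18).

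Leaving out each library in turn gave 10 to 14 members higher, 0 to 4 lower, 3 to 4 broad integrins higher, 0 to 2 lower, 2 to 5 focal adhesion proteins higher, 7 to 24 pathway, 16 to 19 leukocyte signaling and 6 to 8 ligand genes called. The fewest calls came without a TATA/TATA library, where the lone library is assumed to vary like the others and 1851 and 1954 of all genes are called, beside 4933. Log2 fold changes ranged from -0.24 to 0.016 for ilk, from -0.33 to 0.33 for ptk2aa and from -0.11 to 0.70 for vcla. The 24 pathway calls came without lmo1-/- replicate 1, where 6456 of all 13484 genes tested were called. Libraries with shared replicate numbers had correlations of deviations of 0.012 and -0.020 over 2 pairs. With 2 TATA/TATA libraries the deviations from their mean mirror each other, so these values cannot decide whether libraries were paired. A replicate block raised all calls to 5334 and left 1 broad integrin lower, itgb1a losing its call (adjusted p = 0.0854). The cause of other shifts was not tested.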
